A study of Mus musculus with 21 samples.

Results

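TGF-β1 was compared with vehicle in mouse breast cancer cells whose TGF-β receptor had been supplied by a construct, in 6 of the 21 RNA-seq libraries of the series. Both groups derive from E0771, a mouse mammary cancer cell line, here carrying GFP, overexpressing the zinc finger repressor ZBTB18 and holding an inducible TGFBR2. The treated group (3 libraries) received TGF-β1 at 2 ng/mL together with doxycycline at 1 mg/mL, the concentration as the label gives it. The vehicle group (3 libraries) received doxycycline and vehicle, so that the receptor construct, the ZBTB18 construct and doxycycline are common to both. The other 15 libraries, 3 a group, come from ZBTB18-overexpressing cells without the receptor construct, cells with an empty vector, the parental cells, and M11 and M12, a pair of lines taken from lung metastases. The study asked how ZBTB18 alters gene expression in cancer cells and open chromatin, and the comparison described here sets TGF-β1 against vehicle where the receptor is supplied. The labels name 1 cell line per group and give neither the length of treatment nor a statement that replicates were separate cultures. The p-values therefore measure a spread between libraries that may be technical. In the main fit this spread is pooled over all 21 libraries of the 7 groups, not taken from the 6 compared libraries alone. Receptor cells without doxycycline were not analysed here, and reads of a construct and of the endogenous gene are counted together.

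TGF-β ligands are secreted in a latent form and, once freed, bind the receptor TGFBR2, which recruits and phosphorylates TGFBR1. TGFBR1 in turn phosphorylates SMAD2 and SMAD3, which enter the nucleus with SMAD4 and bind DNA beside other factors. Targets include extracellular matrix genes, matricellular proteins of the CCN family, and inhibitors of the pathway itself such as SMAD7 and SKIL. In carcinoma cells the pathway is known for growth arrest in early tumours and for matrix production, motility and loss of epithelial traits in late ones.

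The receptor gene was strongly expressed in both groups. Levels are given throughout as CPM, counts scaled to library size (TMM-adjusted CPM). Tgfbr2, the ligand-binding receptor, had 613, 584 and 616 CPM in the TGF-β1 libraries, against 572, 566 and 626 CPM in the vehicle libraries. These ranges overlap (log2 fold change of 0.04, edgeR adjusted p = 0.929), and both stand far above the mean of 1.74 CPM in ZBTB18 cells without the construct and of 26.6 CPM with empty vector. Zbtb18 had 90.4, 96.8 and 98.5 CPM with TGF-β1, against 75.4, 86.2 and 87.0 CPM with vehicle. Its groups do not overlap, yet the difference was not past the threshold (0.20, adjusted p = 0.433), while a fit that treats same-numbered libraries as pairs gave an adjusted p = 0.00102. Tgfbr1, the signalling partner of TGFBR2, had 21.5, 18.8 and 22.1 CPM with TGF-β1, against 22.5, 19.3 and 19.9 CPM with vehicle (adjusted p = 0.989).

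Total counts were 44090876 to 79782685 in the TGF-β1 libraries and 43182524 to 90518866 in the vehicle libraries, with 18716 to 20024 and 18934 to 20195 genes detected. Mitochondrially encoded genes took 0.525 to 0.68% of counts with TGF-β1 and 0.586 to 0.734% with vehicle. The median SD of a gene between replicates was 0.094 on the log2 scale with TGF-β1 and 0.111 with vehicle. It was 0.111 with ZBTB18, 0.107 with empty vector, 0.198 in parental cells, 0.179 in M11 and 0.187 in M12. The cells carried few markers of the labelled tissue: of 16 breast cancer markers 4 were above 1 CPM in either group, Cd24a, Pgr and Trp63 were at 0, and the list summed to 704 to 731 CPM with TGF-β1 and 600 to 628 CPM with vehicle. Markers of blood cells summed to 9.82 to 16.4 CPM with TGF-β1 and 9.37 to 20.9 CPM with vehicle, those of endothelium to 120 to 131 and 109 to 111 CPM, those of fibroblasts to 558 to 691 and 594 to 761 CPM, and those of lung epithelium to 0.389 to 0.819 and 0.335 to 0.623 CPM. The breast cancer and endothelial sums did not overlap between the groups, and their part in the results was not tested. Above 1 CPM in either group were 2 of 16 blood, 2 of 13 endothelial, 5 of 12 fibroblast and 0 of 11 lung markers. Members with high means with TGF-β1 and vehicle were fibroblast Gsn (492 and 546 CPM), Pdgfra (106 and 110), Col3a1 (26.4 and 17.6) and Pdgfrb (19.1 and 21.4). So were endothelial Eng (122 and 108), blood Cd68 (8.95 and 11.6) and breast cancer Cd44 (345 and 298) and Krt8 (342 and 296). Others, such as blood Cd3e and Tyrobp, endothelial Cldn5 and Tie1, fibroblast Dcn and Lum, and lung Sftpc and Nkx2-1, were at 0 in all 6 libraries. In edgeR 0 members of these 5 lists were called. The median log2 fold changes of their tested members were -0.17 for 6 blood, 0.17 for 7 endothelial, -0.15 for 5 fibroblast, 0.48 for 3 lung and 0.21 for 7 breast cancer markers. In the paired fit described below, 3 of 4 breast cancer markers (Cd44, Krt8 and Erbb2) were higher and 0 lower, with 1 higher and 1 lower of 6 blood, 1 and 0 of 4 endothelial, 1 and 2 of 5 fibroblast, and 0 and 0 of 2 lung markers. Over all genes that fit called 13.4% higher and 12.2% lower.

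With TGF-β1 the cells had more RNA of the anchoring fibril collagen gene Col7a1, the matricellular genes Ccn4 and Ccn2, the SMAD inhibitor gene Skil and cardiac troponin T, Tnnt2, and less of the adhesion gene Mcam and the prostaglandin D synthase gene Ptgds. Of these, the Ptgds call was lost on leaving out any of 4 single libraries and the Ccn2 call on leaving out 1, as given below. Of 15432 genes tested, 295 (1.91%) were past an adjusted p of 0.05, with 194 (1.26%) higher and 101 (0.654%) lower with TGF-β1. Most changes were small: the median fold was 1.52 among higher genes and 1.51 among lower genes, and 51 genes (0.33%) rose and 21 (0.136%) fell by 2-fold or more. Protein-coding genes made up 279 of the 295. The libraries of both groups did not overlap in 294 of the 295 called genes, but the same held for 2171 genes (14.1%) in the higher and 2093 (13.6%) in the lower direction among all genes tested. Genes named by fold change, p-value or CPM difference had to have separate groups, so their separation is no added support. Same-numbered libraries of the groups deviated together, and a paired fit on the 6 libraries called many more genes, 1899 higher (13.4% of 14131) and 1724 lower (12.2%), including 293 of the 295. Leaving out 1 library at a time gave 52 to 130 higher and 19 to 53 lower genes, fewest without vehicle replicate 2 and most without vehicle replicate 3. Below, "rose", "fell" and "called" refer to the fit without pairs, and the paired fit is named where it gives another answer. The gene lists and their members were chosen with earlier results of these data known. A list share above that of all genes is therefore a description and not independent support. In bulk RNA, fewer cells that express a gene and less RNA per cell cannot be told apart.

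**Figure D1:**
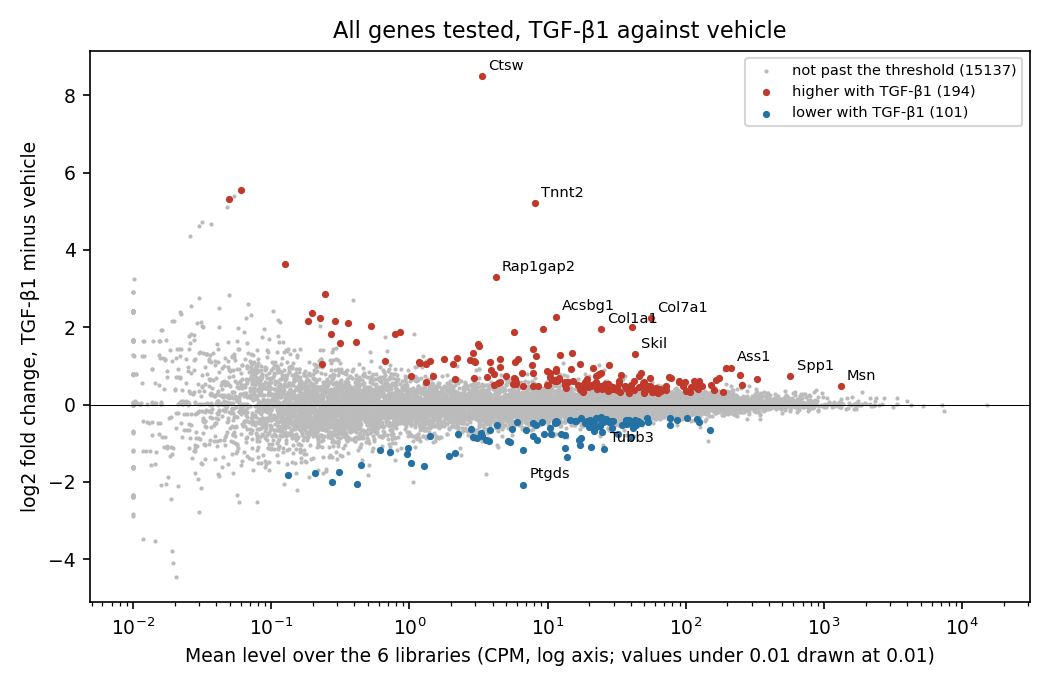
Log2 fold change of TGF-β1 minus vehicle (vertical axis) against the mean CPM over the 6 libraries (horizontal log axis) for the 15432 genes tested. Points in red are the 194 genes higher with TGF-β1, points in blue the 101 lower ones, and grey points did not pass; Ctsw and Tnnt2 stand highest among the genes labelled.

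On build mm10, Col7a1 lies on the plus strand of chromosome 9 (108953586 to 108984875), Skil on that of chromosome 3 (31095058 to 31122577), Ccn2 on that of chromosome 10 (24595442 to 24598683) and Tnnt2 on that of chromosome 1 (135836354 to 135852260). Bmp1 lies on the minus strand of chromosome 14 (70474558 to 70520234) and Ctsw on that of chromosome 19 (5465043 to 5468507). All 6 are protein-coding genes, and values are sums over their transcripts.

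In a list of ligands, the proteins that keep them latent and the protease gene Bmp1, 2 of 12 tested members rose (16.7%, against 1.26% of all genes) and 0 fell. Their median log2 fold change was 0.03, against -0.005 over all genes tested. Bmp1, neither a ligand nor a latency protein gene, encodes the metalloproteinase that trims procollagens and cleaves latent TGF-β binding proteins, and is counted again under collagen processing. It had 206, 219 and 218 CPM with TGF-β1, against 129, 140 and 133 CPM with vehicle, and rose with a log2 fold change of 0.68 (SE 0.07, adjusted p = 4.97e-06). Ltbp3, a latent TGF-β binding protein, had 224, 202 and 179 CPM with TGF-β1, against 131, 141 and 121 CPM with vehicle (0.62, SE 0.10, adjusted p = 0.00164). The groups of both genes are separate. The ligand genes Tgfb1 (109, 99.4 and 96.5 CPM with TGF-β1, against 90.3, 102 and 109 CPM with vehicle), Tgfb2 and Tgfb3 did not pass, at adjusted p = 0.990, 0.996 and 0.824. In the paired fit Ltbp1 (log2 fold change 0.41, adjusted p = 0.000106) was also higher and Gdf11 (-0.31, adjusted p = 0.00888) and Ltbp4 (-0.16, adjusted p = 0.0242) were lower. Paired shares of this list were 25% higher and 16.7% lower, against 13.4% and 12.2% of all genes.

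None of the 11 receptor genes tested passed in edgeR, with a median log2 fold change of 0.13. With pairs 4 were higher (36.4%, against 13.4% of all genes) and 1 lower (9.09%, against 12.2%). Acvrl1, a type I receptor that also binds TGF-β and BMP9, had 0.741, 0.847 and 1.19 CPM with TGF-β1, against 0.554, 0.522 and 0.530 CPM with vehicle (0.78, adjusted p = 0.0705, paired 0.0189). Tgfbr3, the co-receptor betaglycan, had 23.8, 23.8 and 33.4 CPM with TGF-β1, against 32.8, 33.2 and 42.5 CPM with vehicle. These groups overlap, replicate 3 was the highest library of each, and the paired difference of -0.43 passed (adjusted p = 6.28e-06) where the unpaired one did not (-0.42, adjusted p = 0.160). The other receptors past the paired threshold were Bmpr2 (0.25, adjusted p = 0.000104), Eng (0.17, adjusted p = 0.00286) and Acvr1 (0.30, adjusted p = 0.0148), against adjusted p = 0.208, 0.658 and 0.328 without pairs.

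Of 15 SMADs and SMAD ligases tested, 0 passed in edgeR, with a median log2 fold change of 0.04. Smad2 had 56.9, 54.0 and 57.0 CPM with TGF-β1, against 56.5, 53.3 and 57.5 CPM with vehicle, and Smad4 had 75.4, 75.2 and 75.6 CPM, against 72.9, 72.0 and 74.9 CPM with vehicle. Smad3 had 65.9, 62.4 and 68.3 CPM with TGF-β1, against 66.8, 68.8 and 77.4 CPM with vehicle (-0.12, adjusted p = 0.694). Smad7, the inhibitory SMAD that TGF-β induces, had 24.8, 23.2 and 22.2 CPM with TGF-β1, against 16.8, 17.9 and 16.4 CPM with vehicle. Its groups are separate, but the log2 fold change of 0.46 did not pass without pairs (SE 0.15, adjusted p = 0.135) and passed with them (adjusted p = 1.25e-05). In the paired fit Trim33 (0.16, adjusted p = 0.00656) was also higher and Smurf1 (-0.14, adjusted p = 0.0146) lower. Paired shares of this list were 13.3% higher and 6.67% lower, against 13.4% and 12.2% of all genes.

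Inhibitors that act back on the pathway rose in 3 of 14 tested (21.4%, against 1.26% of all genes), with 0 falling and a median of 0.08. Skil encodes SnoN, which binds SMADs and represses their targets. Its level was 53.7, 62.9 and 66.9 CPM with TGF-β1, against 21.3, 22.8 and 30.6 CPM with vehicle (log2 fold change 1.301, SE 0.13, adjusted p = 3.66e-06). Its relative Ski had 102, 101 and 87.5 CPM with TGF-β1, against 59.7, 61.2 and 57.8 CPM with vehicle (0.70, SE 0.12, adjusted p = 0.00421). Ldlrad4, which sequesters receptor SMADs, had 5.90, 6.32 and 6.52 CPM with TGF-β1, against 3.98, 3.50 and 3.81 CPM with vehicle (0.73, SE 0.15, adjusted p = 0.0135). No library of any of the 3 overlapped the other group, and the Ldlrad4 call was lost without TGF-β1 replicate 2 or 3 or vehicle replicate 2 (adjusted p = 0.0554, 0.0627 and 0.103). The paired fit called 6 of 13 higher (46.2%, against 13.4% of all genes) and 1 lower (7.69%, against 12.2%). It added Smad7, Tgif1 (0.14, adjusted p = 0.00969), Ppm1a (0.12, adjusted p = 0.0210) and, lower, Smurf1. The ID genes, targets of BMP signalling that encode inhibitors of bHLH factors, did not pass in either fit (0 of 3 tested, median -0.29): Id1 had 35.8, 28.6 and 21.6 CPM with TGF-β1, against 33.0, 34.0 and 29.8 CPM with vehicle.

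Genes known as direct targets of TGF-β rose in 8 of 32 tested and fell in 0, with a median log2 fold change of 0.35, against 1.26% higher among all genes. They were Ccn4, Ccn2, Skil, Pdlim7, Ldlrad4, Bhlhe40, Spsb1 and Hmga2. Ccn4 encodes a matricellular protein also known as WISP1. It had 60.1, 69.9 and 65.4 CPM with TGF-β1, against 12.6, 16.6 and 19.5 CPM with vehicle (2.01, SE 0.18, adjusted p = 9.65e-07). Ccn2, connective tissue growth factor, had 12.6, 18.3 and 13.2 CPM with TGF-β1, against 2.30, 4.64 and 4.52 CPM with vehicle (1.96, SE 0.37, adjusted p = 0.01001). Each TGF-β1 library lay above each vehicle library for both genes. The low vehicle replicate 1 weighed on Ccn2, whose call was lost without it (log2 fold change 1.68, adjusted p = 0.0671). Bhlhe40, a transcriptional repressor of the bHLH class, had 309, 297 and 295 CPM with TGF-β1, against 218, 206 and 208 CPM with vehicle (0.51, SE 0.08, adjusted p = 0.00181).

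Other response genes had smaller folds or wider spread. Spsb1, which targets TGFBR2 for degradation, had 12.8, 12.9 and 15.5 CPM with TGF-β1, against 7.38, 8.68 and 11.1 CPM with vehicle (0.60, adjusted p = 0.0427). That call was lost without any library other than vehicle replicate 3, at adjusted p of 0.0848 to 0.232. The Hmga2 call, at 153, 155 and 150 CPM with TGF-β1, against 106, 108 and 115 CPM with vehicle, was lost without any 1 of the 6 libraries (adjusted p 0.0758 to 0.165). Ccn1 had 30.9, 33.9 and 29.4 CPM with TGF-β1, against 11.97, 16.4 and 17.9 CPM with vehicle, and missed the threshold without pairs (1.03, adjusted p = 0.0635, paired 0.00146). Tgm2, tissue transglutaminase, varied widely within both groups, with 38.5, 65.0 and 110 CPM with TGF-β1, against 20.9, 45.8 and 96.2 CPM with vehicle (0.40, adjusted p = 0.833, paired 0.184), and its groups overlap. The paired fit called 17 of 30 higher (56.7%, against 13.4% of all genes) and 1 lower, Klf10 (-0.20, adjusted p = 0.00192). Without 1 library the unpaired count of 8 was 4 to 7, at 4 without vehicle replicate 1, 5 without vehicle replicate 2 or TGF-β1 replicate 2 or 3, 6 without TGF-β1 replicate 1 and 7 without vehicle replicate 3. Ccn1, Tgm2 and Klf10 were named after their values were seen.

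**Figure D2:**
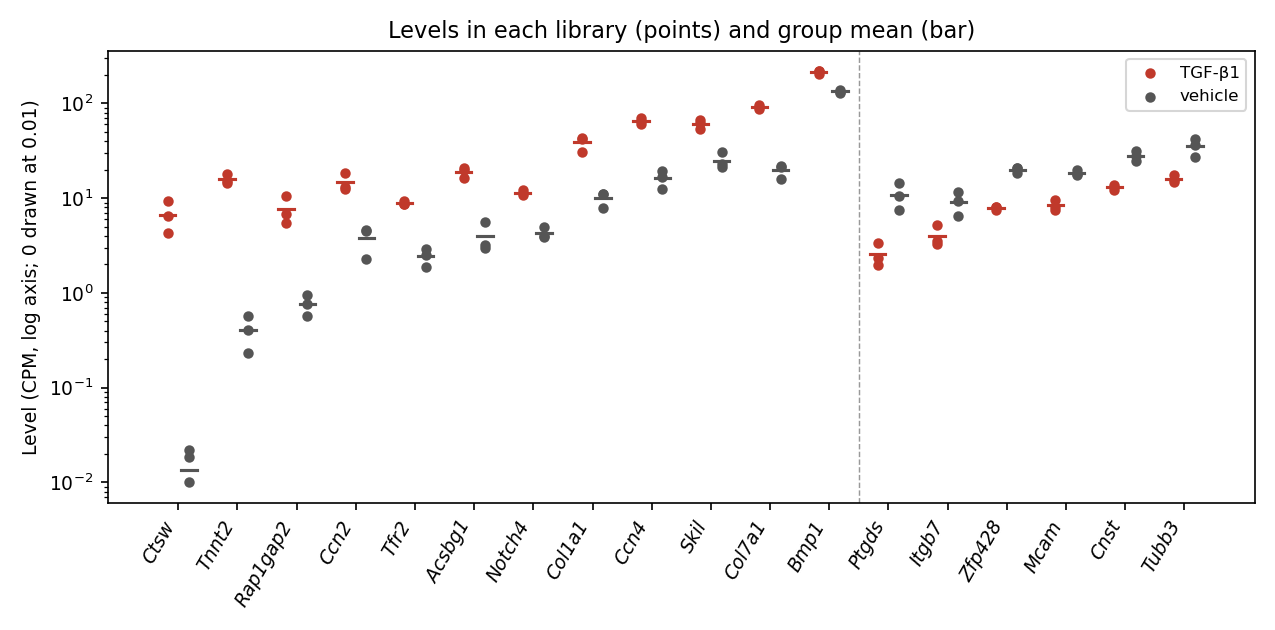
CPM of 18 called genes in each library (points, log axis) with the group mean (bar), TGF-β1 in red left of vehicle in grey. Genes left of the dashed line were higher and those right of it lower with TGF-β1; in each of them the 3 points of one group lie apart from the 3 of the other.

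Collagen chains rose in 3 of 19 tested (15.8%, against 1.26% of all genes), and 0 fell (median 0.31). Col7a1, the anchoring fibril collagen, had 88.3, 90.9 and 97.3 CPM with TGF-β1, against 15.8, 21.3 and 21.8 CPM with vehicle (2.24, SE 0.19, adjusted p = 1.46e-06). In TPM, which is scaled by effective length, the Col7a1 mean was 26 ± 2.63 with TGF-β1 and 11.4 ± 2.46 with vehicle (SD). The fold was smaller in TPM than in CPM, and the cause was not tested. Col1a1, a chain of fibrillar collagen I, had 42.3, 43.1 and 31.1 CPM with TGF-β1, against 11.03, 11.1 and 7.91 CPM with vehicle (1.95, SE 0.30, adjusted p = 0.00164). TGF-β1 replicate 3 and vehicle replicate 3 were each the lowest of their group for Col1a1, and the groups stay separate. Col1a2, the partner chain, averaged only 0.0527 CPM with TGF-β1 and 0.0198 CPM with vehicle and was not tested, so the rise covers Col1a1 RNA only. Col5a2 was near the detection limit, with 0.779, 0.504 and 0.580 CPM with TGF-β1, against 0.233, 0.186 and 0.185 CPM with vehicle, and its call was lost without any 1 library (adjusted p 0.0935 to 0.258). The paired fit called 12 of 17 higher (70.6%, against 13.4% of all genes). Those included Col5a1, with 325, 289 and 295 CPM with TGF-β1, against 206, 205 and 202 CPM with vehicle (0.57, adjusted p = 0.104, paired 1.20e-09), and Col3a1 (0.58, adjusted p = 0.236, paired 4.44e-07). Collagen VI was not uniform: Col6a1 (-0.21, paired adjusted p = 0.000255) and Col6a2 (-0.23, paired adjusted p = 0.000126) were lower and Col6a3 (0.39, paired adjusted p = 0.000140) higher in the paired fit. Named after their values were seen, these 5 genes had separate groups except Col6a3.

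The promoter of Col7a1 is shown because this gene had the clearest rise among the matrix genes, beside those of Notch4, Acsbg1 and Tnnt2, further strong rises described below, and of Mcam and Cnst, strong falls. Each is a window of 300 bases around the transcript start, read 5′ to 3′ on the strand given, from RefSeq on build GRCm38.p6, and capitals mark the SMAD box, CAGAC or its reverse complement GTCTG.
Col7a1, chr9:108953336-108953635, plus strand: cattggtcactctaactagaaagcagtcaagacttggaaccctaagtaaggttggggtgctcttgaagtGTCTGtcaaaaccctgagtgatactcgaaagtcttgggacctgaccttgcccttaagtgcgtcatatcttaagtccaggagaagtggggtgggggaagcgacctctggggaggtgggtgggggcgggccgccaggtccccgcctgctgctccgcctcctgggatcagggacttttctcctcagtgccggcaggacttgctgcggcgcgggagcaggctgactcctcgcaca
Notch4, chr17:34564045-34564344, plus strand: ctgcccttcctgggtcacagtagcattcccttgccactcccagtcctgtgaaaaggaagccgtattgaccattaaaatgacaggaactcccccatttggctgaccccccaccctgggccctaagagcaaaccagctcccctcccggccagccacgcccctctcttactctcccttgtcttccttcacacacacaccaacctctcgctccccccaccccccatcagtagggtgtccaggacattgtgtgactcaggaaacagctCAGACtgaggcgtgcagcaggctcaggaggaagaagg
Acsbg1, chr9:54661836-54662135, minus strand: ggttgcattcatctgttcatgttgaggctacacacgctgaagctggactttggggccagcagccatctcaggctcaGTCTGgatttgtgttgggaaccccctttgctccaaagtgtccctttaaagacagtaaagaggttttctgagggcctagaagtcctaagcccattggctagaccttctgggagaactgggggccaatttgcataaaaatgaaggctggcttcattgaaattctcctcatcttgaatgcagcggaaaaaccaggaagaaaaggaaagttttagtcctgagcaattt
Tnnt2, chr1:135836084-135836383, plus strand: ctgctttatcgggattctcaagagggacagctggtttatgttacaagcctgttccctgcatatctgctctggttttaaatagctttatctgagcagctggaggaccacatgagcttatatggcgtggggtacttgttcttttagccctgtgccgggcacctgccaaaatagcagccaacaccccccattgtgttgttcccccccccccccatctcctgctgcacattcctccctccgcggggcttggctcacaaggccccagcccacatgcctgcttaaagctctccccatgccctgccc
Mcam, chr9:44134408-44134707, plus strand: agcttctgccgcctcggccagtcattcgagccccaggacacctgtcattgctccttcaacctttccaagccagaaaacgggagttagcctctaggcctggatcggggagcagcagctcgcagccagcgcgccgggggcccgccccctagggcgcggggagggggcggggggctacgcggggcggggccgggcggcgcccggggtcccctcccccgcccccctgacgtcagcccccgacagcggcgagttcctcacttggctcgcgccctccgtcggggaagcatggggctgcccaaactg
Cnst, chr1:179546279-179546578, plus strand: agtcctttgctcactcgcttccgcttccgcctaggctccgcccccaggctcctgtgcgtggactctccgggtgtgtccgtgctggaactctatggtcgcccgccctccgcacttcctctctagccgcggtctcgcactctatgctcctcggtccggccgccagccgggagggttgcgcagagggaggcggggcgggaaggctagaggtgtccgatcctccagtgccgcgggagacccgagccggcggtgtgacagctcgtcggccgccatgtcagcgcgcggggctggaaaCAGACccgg
Col7a1, Notch4, Acsbg1 and Cnst each hold 1 such box in this window, and Tnnt2 and Mcam hold 0. Another Tnnt2 promoter window, chr1:135836739-135837038 on the plus strand, is not printed and also holds 0. The box is common: it was in 52.4% of 206 promoters of higher genes, 47.3% of 91 promoters of lower genes and 47.4% of 13115 promoters of the genes tested, on either strand. The AP-1 element TGANTCA was in 2.91%, 4.4% and 5.65% of those promoters, and the TEAD element GGAATG in 13.6%, 14.3% and 12.2%. The palindrome GTCTAGAC, which contains no CAGAC or GTCTG and so does not overlap that count, was in 1 promoter of a higher gene (Rab15) and 1 of a lower gene (Sys1), against 0.236% of the promoters tested. A promoter entry matched 224 of the 295 called genes, and a match of letters describes these windows only.

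Matrix glycoproteins rose in 5 of 20 tested (25%, against 1.26% of all genes) and fell in 0 (median 0.06). Fbln2, a basement membrane and elastic fibre protein, had 247, 251 and 274 CPM with TGF-β1, against 130, 141 and 132 CPM with vehicle (0.94, SE 0.15, adjusted p = 0.00159). Spp1, osteopontin, had 679, 718 and 740 CPM with TGF-β1, against 413, 398 and 479 CPM with vehicle (0.73, SE 0.15, adjusted p = 0.0148). Bgn, the proteoglycan biglycan, had 9.62, 7.19 and 7.03 CPM with TGF-β1, against 4.28, 3.82 and 2.91 CPM with vehicle (1.11, SE 0.21, adjusted p = 0.00640). Groups were separate for all 3. Lamb1, the laminin β1 chain, had 4.16, 3.62 and 4.57 CPM with TGF-β1, against 1.64, 1.53 and 1.80 CPM with vehicle (1.32, SE 0.24, adjusted p = 0.00548), and tenascin C, Tnc, 3.27, 3.41 and 5.25 CPM, against 1.35, 1.49 and 2.77 CPM with vehicle (1.12, SE 0.29, adjusted p = 0.0486). Replicate 3 was the highest for Tnc in both groups. Calls were lost for Bgn without TGF-β1 replicate 1 (adjusted p = 0.0561) and for Spp1 without TGF-β1 replicate 2 or 3 or vehicle replicate 1 or 2 (0.0554 to 0.107). The Tnc call was lost without any library but vehicle replicate 3 (0.0771 to 0.242). With 1 library left out, log2 fold changes stayed at 0.948 to 1.241 for Bgn, 0.675 to 0.813 for Spp1 and 0.864 to 1.487 for Tnc. The count of 5 was 3 without any library but vehicle replicate 3. In the paired fit 8 of 18 were higher (44.4%, against 13.4% of all genes) and 5 lower (27.8%, against 12.2%). The higher ones were Lamb1, Lamb3, Sparc, Vcan, Tnc, Spp1, Bgn and Fbln2 and the lower ones Nid1, Lama5, Ecm1, Hspg2 and Agrn.

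Genes for collagen processing rose in 1 of 18 tested, Bmp1 (5.56%, against 1.26% of all genes, median 0.16). In the paired fit 8 of 16 were higher (50%, against 13.4% of all genes) and 2 lower (12.5%, against 12.2%). Among the 8, Serpinh1, the collagen chaperone HSP47, had 1113, 1081 and 1019 CPM with TGF-β1, against 870, 882 and 878 CPM with vehicle (0.29, adjusted p = 0.0987, paired 6.31e-06). P4ha2, a prolyl hydroxylase subunit, had 136, 112 and 133 CPM with TGF-β1, against 107, 90.2 and 106 CPM with vehicle (0.33, adjusted p = 0.263, paired 2.75e-06). Both were named after their values were seen, and neither had overlapping groups. Matrix proteases and their inhibitors rose in 1 of 24 (4.17%, median 0.04), and the paired fit gave 5 higher and 5 lower of 20 (25% each). Mmp14, a membrane-bound collagenase, had 170, 176 and 186 CPM with TGF-β1, against 120, 122 and 132 CPM with vehicle (0.51, SE 0.10, adjusted p = 0.00936); its call was lost without TGF-β1 replicate 3 (adjusted p = 0.0536) or vehicle replicate 1 or 2 (0.0649 and 0.0608).

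Integrin subunits rose in 2 and fell in 1 of 15 tested (20% called, against 1.91% of all genes, median 0.06). In the paired fit 4 of 13 were higher (30.8%, against 13.4% of all genes) and 2 lower (15.4%, against 12.2%). Itgb5, a partner of αv that binds vitronectin, had 152, 154 and 146 CPM with TGF-β1, against 101, 101 and 92.9 CPM with vehicle (0.61, SE 0.10, adjusted p = 0.00164). Itgb3, the β3 partner of αv, had 17.1, 18.6 and 22.2 CPM with TGF-β1, against 8.44, 9.24 and 13.2 CPM with vehicle (0.91, SE 0.20, adjusted p = 0.0211). Itgb7, the β chain of leukocyte integrins, was lower, with 3.31, 3.50 and 5.22 CPM with TGF-β1, against 6.43, 9.30 and 11.7 CPM with vehicle (-1.17, SE 0.22, adjusted p = 0.00976). The 3 genes had separate groups, and replicate 3 was the highest of each group for Itgb3 and Itgb7. The Itgb3 call was lost without TGF-β1 replicate 2 or 3 or vehicle replicate 1 or 2 (adjusted p 0.0587 to 0.137), and the Itgb7 call without TGF-β1 replicate 1 or 2 or vehicle replicate 2 (0.0520 to 0.0724). Itgav, their shared partner in the case of Itgb3 and Itgb5, had 116, 113 and 128 CPM with TGF-β1, against 98.3, 86.4 and 99.7 CPM with vehicle (0.33, adjusted p = 0.298, paired 7.46e-06).

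**Figure D3:**
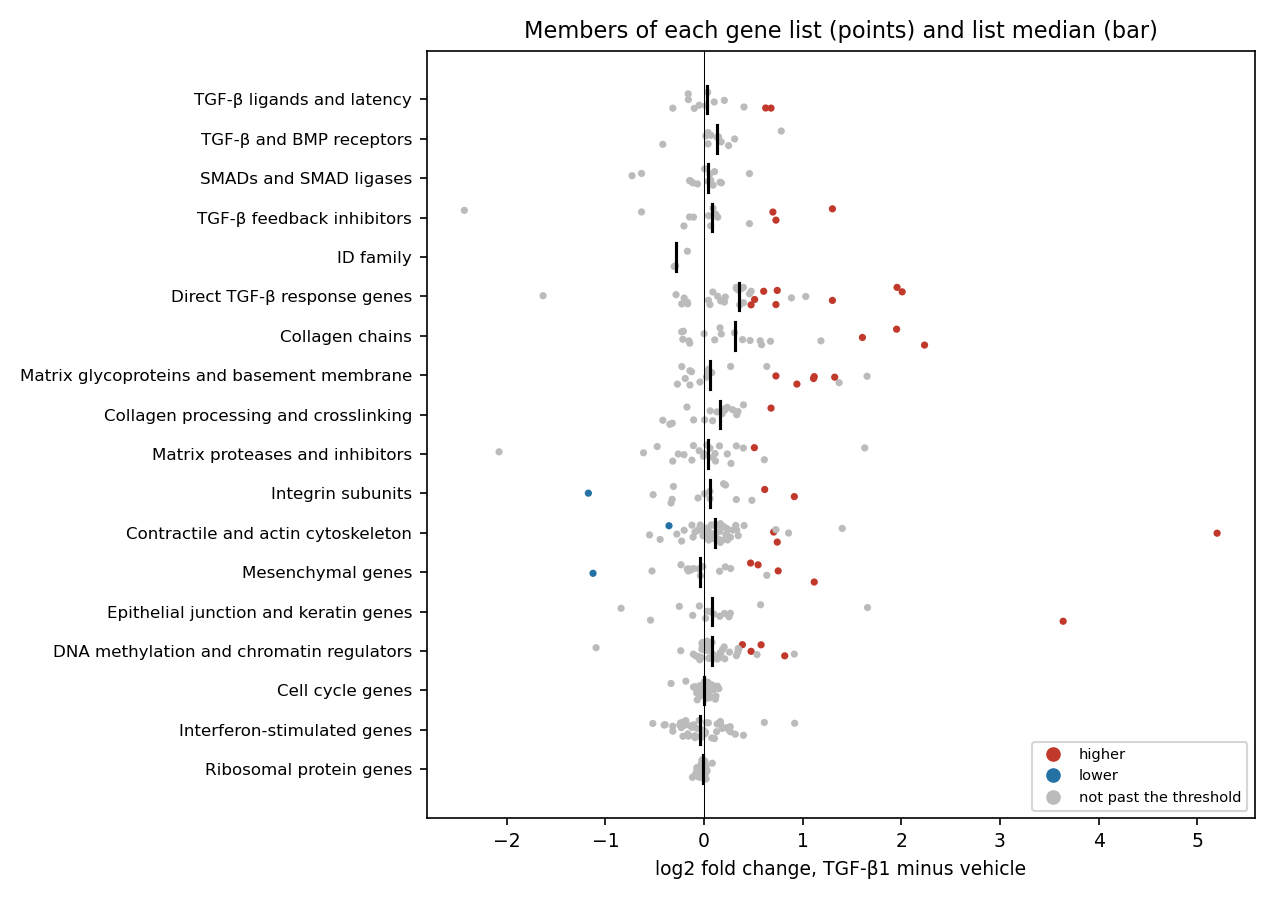
Log2 fold change of TGF-β1 minus vehicle for each tested member (points) of 18 of the gene lists, with the list median (bar). Red and blue points passed the threshold in the higher and lower direction; the response gene and collagen medians, 0.35 and 0.31, lie to the right of 0, and those of cell cycle and ribosomal protein genes, 0.002 and -0.011, at it.

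Contractile and actin cytoskeleton genes rose in 3 and fell in 1 of 50 tested (8% called, against 1.91% of all genes, median 0.11). Tnnt2, cardiac troponin T, had 15.2, 17.9 and 14.5 CPM with TGF-β1, against 0.577, 0.410 and 0.231 CPM with vehicle (5.20, SE 0.33, adjusted p = 4.34e-09). Pdlim7, a PDZ-LIM adaptor on actin filaments, had 55.2, 57.9 and 58.2 CPM with TGF-β1, against 29.3, 35.7 and 37.7 CPM with vehicle (0.74, SE 0.15, adjusted p = 0.00981). Csrp1, a LIM protein of smooth muscle, had 92.1, 94.6 and 94.6 CPM with TGF-β1, against 54.3, 57.8 and 60.6 CPM with vehicle (0.71, SE 0.16, adjusted p = 0.0281). The groups of the 3 genes were separate. Cnn2, calponin 2, went the other way, with 90.6, 92.4 and 87.1 CPM with TGF-β1, against 114, 123 and 109 CPM with vehicle (-0.36, SE 0.09, adjusted p = 0.0362). The calls were lost for Pdlim7 without vehicle replicate 1 (adjusted p = 0.0755), for Csrp1 without any 1 library (0.0633 to 0.138) and for Cnn2 without any but vehicle replicate 3 (0.0954 to 0.207), so that the count of 3 was 1 without vehicle replicate 1 and 2 without any of the others.

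In the paired fit 22 of 49 cytoskeletal genes were higher (44.9%, against 13.4% of all genes) and 5 lower (10.2%, against 12.2%). Actn1, α-actinin, had 575, 576 and 613 CPM with TGF-β1, against 439, 468 and 482 CPM with vehicle (0.35, adjusted p = 0.271, paired 4.56e-07). Smooth muscle actin, Acta2, a common marker of TGF-β answering fibroblasts, was lower, with 34.9, 38.8 and 40.5 CPM with TGF-β1, against 49.8, 50.9 and 54.8 CPM with vehicle (-0.45, adjusted p = 0.592, paired 9.70e-07). Both genes, named after their values were seen, had separate groups. Neither Tagln nor Myl9, further smooth muscle genes, passed in either fit, and both stayed under 1 CPM in all 6 libraries.

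Lists of the epithelial to mesenchymal transition differed in their counts. Its transcription factors gave 0 calls among 16 tested in edgeR (median 0.13). The paired fit called 3 of 14 (21.4%, against 13.4% of all genes), Sox9, Ets1 and Snai1, all higher. Zeb1 had 53.7, 55.1 and 59.0 CPM with TGF-β1, against 54.0, 56.2 and 56.6 CPM with vehicle (adjusted p = 0.994), and Snai1 had 14.8, 14.5 and 14.6 CPM, against 10.2, 12.2 and 11.7 CPM with vehicle (0.36, adjusted p = 0.275, paired 0.000788). Mesenchymal genes rose in 4 of 19 tested (Fstl1, Tnc, Msn and Nt5e) and fell in 1 (Mcam), 26.3% called against 1.91% of all genes, with a median of -0.04. The paired fit had 7 higher (36.8%, against 13.4% of all genes) and 3 lower (15.8%, against 12.2%). Vim, vimentin, had 4992, 4209 and 3429 CPM with TGF-β1, against 4567, 4454 and 3725 CPM with vehicle (-0.01, adjusted p = 0.997). Nt5e, the ecto-nucleotidase CD73, had 300.0, 333 and 294 CPM with TGF-β1, against 190.2, 175 and 186 CPM with vehicle (0.75, SE 0.14, adjusted p = 0.00524). Zeb1, Snai1 and Vim were named after their values were seen. The mesenchymal count of 4 was 2 without TGF-β1 replicate 2 or 3 or vehicle replicate 1 or 2.

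Epithelial junction and keratin genes were higher in 6 (42.9%, against 13.4% of all genes) and lower in 2 (14.3%, against 12.2%) of 14 in the paired fit. Without pairs 1 of 16 tested rose (6.25%, against 1.26%, median 0.08). That gene, the plakophilin Pkp1, had 41 reads over the TGF-β1 libraries and 3 over the vehicle libraries, a ratio of 14.2 with an exact 95% counting interval of 4.52 to 71.5 that leaves out variation between replicates. Its call was lost without vehicle replicate 1 or 2 (adjusted p = 0.117 and 0.0674), and without vehicle replicate 3 the list had 2 rises. Krt8, the keratin of simple epithelium, had 346, 345 and 334 CPM with TGF-β1, against 277, 300.3 and 311 CPM with vehicle (0.21, adjusted p = 0.660, paired 0.000571), a gene named after its values were seen.

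Several of the largest rises lay outside matrix and pathway genes. Ctsw, a cathepsin known from cytotoxic lymphocytes, had 4.28, 6.53 and 9.28 CPM with TGF-β1, against 0.0222, 0.0186 and 0 CPM with vehicle. Its reads numbered 1164 over the TGF-β1 libraries and 3 over the vehicle libraries, a ratio of 402 (counting interval 137 to 1950, adjusted p = 1.31e-08). Of 10 lymphoid and cytotoxic genes tested, Ctsw was the 1 that rose and Itgb7 the 1 that fell (20% called, against 1.91% of all genes, median -0.20). The paired fit gave 1 and 1 of 6 (16.7% each, against 13.4% higher and 12.2% lower of all genes). Like the other lists, this list was chosen with earlier results known, so its share is a description only. Rap1gap2, which inactivates the small GTPase RAP1, had 6.82, 10.7 and 5.49 CPM with TGF-β1, against 0.954, 0.764 and 0.577 CPM with vehicle (3.29, SE 0.36, adjusted p = 1.91e-05). Acsbg1, a fatty acyl-CoA synthetase, had 16.2, 19.8 and 20.8 CPM with TGF-β1, against 2.98, 3.21 and 5.67 CPM with vehicle (2.28, SE 0.30, adjusted p = 0.000334). In all of these the lowest TGF-β1 library exceeded the highest vehicle library, which the rule for naming them required. Tfr2, the transferrin receptor 2, had 8.72, 9.23 and 8.75 CPM with TGF-β1, against 1.86, 2.93 and 2.51 CPM with vehicle (1.88, SE 0.25, adjusted p = 0.000249).

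Ass1, argininosuccinate synthase of the arginine pathway, had 230.2, 288 and 319 CPM with TGF-β1, against 117, 147 and 167 CPM with vehicle (0.96, SE 0.16, adjusted p = 0.00245). Its replicates ran in the same order in both groups. Maged1, a MAGE family adaptor, had 412, 374 and 418 CPM with TGF-β1, against 245, 237 and 276 CPM with vehicle (0.67, SE 0.10, adjusted p = 0.000748). Zscan26, a zinc finger gene, had 32.9, 29.7 and 29.8 CPM with TGF-β1, against 16.3, 16.7 and 19.95 CPM with vehicle (0.81, SE 0.10, adjusted p = 0.000170). Inava, with 19.3, 22.3 and 22.7 CPM with TGF-β1, against 7.30, 8.74 and 9.45 CPM with vehicle (1.33, SE 0.26, adjusted p = 0.00936), lost its call without vehicle replicate 1 or 2 (adjusted p = 0.0704 and 0.0532). Pigo, an enzyme of GPI anchor synthesis, had 17.8, 17.0 and 17.2 CPM with TGF-β1, against 6.20, 7.03 and 8.35 CPM with vehicle (1.28, SE 0.26, adjusted p = 0.0136) and lost its call without TGF-β1 replicate 1 or vehicle replicate 1 or 2 (0.0562, 0.0932 and 0.0850). The groups of all 5 genes were separate. Rhbdl1 and Prss50 were called on very few reads, 21 and 18 over the TGF-β1 libraries and 0 over the vehicle libraries. With the vehicle group set to a floor of 3 counts, the ratios are 7.26 and 6.22. Their exact 95% counting intervals reach down to ratios of 5.4 and 4.56.

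Cnst, the fall with the smallest p-value, encodes consortin, a connexin trafficking receptor. It had 13.2, 12.2 and 13.7 CPM with TGF-β1, against 31.6, 27.7 and 24.7 CPM with vehicle (-1.10, SE 0.13, adjusted p = 5.32e-05). Mcam, the cell adhesion molecule CD146, had 8.08, 9.64 and 7.52 CPM with TGF-β1, against 17.8, 19.8 and 17.4 CPM with vehicle (-1.13, SE 0.15, adjusted p = 0.000208). Zfp428, a zinc finger gene, had 8.02, 7.56 and 8.0 CPM with TGF-β1, against 20.8, 20.8 and 18.4 CPM with vehicle (-1.35, SE 0.22, adjusted p = 0.00305). For these the vehicle libraries all stood above 1.5 times the highest TGF-β1 library. Ptgds, prostaglandin D synthase, had 1.98, 2.34 and 3.38 CPM with TGF-β1, against 7.46, 10.6 and 14.3 CPM with vehicle (-2.07, SE 0.41, adjusted p = 0.0124), and replicate 3 was the highest in both groups. Zfat, a zinc finger gene, had 5.84, 5.77 and 5.87 CPM with TGF-β1, against 11.6, 11.1 and 10.1 CPM with vehicle (-0.91, SE 0.16, adjusted p = 0.00445), and Trmt10a, a tRNA methyltransferase, had 10.9, 13.7 and 12.1 CPM, against 23.6, 23.4 and 20.3 CPM with vehicle (-0.87, SE 0.15, adjusted p = 0.00341).

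Lpar2, a lysophosphatidic acid receptor, had 10.7, 12.02 and 12.1 CPM with TGF-β1, against 20.2, 23.4 and 22.5 CPM with vehicle (-0.92, SE 0.18, adjusted p = 0.00819). Tubb3, β-tubulin III, had 14.7, 17.5 and 15.6 CPM with TGF-β1, against 27.1, 42.1 and 36.3 CPM with vehicle (-1.14, SE 0.27, adjusted p = 0.0330), and peripherin, Prph, had 3.92, 3.73 and 3.22 CPM, against 7.16, 7.29 and 6.76 CPM with vehicle (-0.96, SE 0.19, adjusted p = 0.0109). Tubb3 was the 1 fall among 12 tested channel, transporter and cytoskeleton genes of neurons and muscle, in which 0 rose (8.33% called, against 1.91% of all genes, median -0.02). Of this paragraph and the one before, calls were lost without 1 library for Ptgds (TGF-β1 replicate 1 or 2 or vehicle replicate 2 or 3, adjusted p 0.0520 to 0.0869), Lpar2 (TGF-β1 replicate 1 or vehicle replicate 2, 0.0567 and 0.0523), Prph (TGF-β1 replicate 3 or vehicle replicate 1 or 2, 0.0508 to 0.0671) and Tubb3 (any but vehicle replicate 1, 0.0846 to 0.173). Further falls named by size were Adhfe1, Zfp446, Dffb and Lysmd1, with log2 fold changes of -1.05, -0.94, -0.94 and -0.83, of which Zfp446 was lost without vehicle replicate 1 (adjusted p = 0.0671), Adhfe1 without any library but vehicle replicate 1 (0.0613 to 0.245), and Lysmd1 without any but vehicle replicate 3 (0.0973 to 0.179).

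Genes whose symbols begin with Zfp, Zkscan, Zscan or Znf and a number, a set looked at after the values were seen, had 11 higher and 6 lower of 358 tested (4.75% called, against 1.91% of all genes), with a median of -0.004. Zinc finger genes with other names, such as Zfat, were left out. The set included Zscan26, Zkscan17 and Zfp35 as higher and Zfp428, Zfp446 and Zfp143 as lower.

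Regulators of DNA methylation and chromatin rose in 4 of 43 tested (9.3%, against 1.26% of all genes) and fell in 0 (median 0.08). Dnmt3a, a de novo DNA methyltransferase, had 59.2, 58.5 and 61.0 CPM with TGF-β1, against 37.1, 40.0 and 42.7 CPM with vehicle (0.58, SE 0.10, adjusted p = 0.00496). Its relative Dnmt3b had 9.36, 8.04 and 7.44 CPM with TGF-β1, against 4.46, 4.79 and 4.89 CPM with vehicle (0.82, SE 0.18, adjusted p = 0.0164), and the histone demethylase Kdm1a 172, 193 and 179 CPM, against 130, 147 and 139 CPM with vehicle (0.39, SE 0.08, adjusted p = 0.0149). The groups of the first 2 were separate by a wide margin and those of Kdm1a by less. The count of 4 was 1 without vehicle replicate 1, 3 without vehicle replicate 3 and 2 without any of the others, as calls of Dnmt3b (adjusted p 0.0778 to 0.108), Kdm1a (0.0521 to 0.108) and Hmga2 were lost. With pairs 16 of 41 were higher (39%, against 13.4% of all genes) and 1 lower (2.44%, against 12.2%).

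Growth and stress programmes gave few or no calls without pairs. Cell cycle genes gave 0 of 40 in edgeR (median 0.002), and 3 higher and 2 lower in the paired fit, under the 13.4% and 12.2% of all genes. Mki67, the proliferation marker Ki-67, had 153, 146 and 152 CPM with TGF-β1, against 167, 147 and 150 CPM with vehicle (adjusted p = 0.956), and the CDK inhibitor Cdkn1a, p21, 220, 169 and 199 CPM, against 182, 161 and 209 CPM with vehicle (adjusted p = 0.929); both were named after their values were seen. CDK inhibitors and p53 targets rose in 2 of 26 (7.69%, against 1.26% of all genes, median 0.05, paired 6 higher and 2 lower of 25, 24% and 8%), the pocket protein gene Rbl1 (0.39, adjusted p = 0.0207) and Phlda3 (0.53, adjusted p = 0.0427). That count was 0 or 1 without any 1 library. Immediate early factors rose in 2 of 22 (9.09%, median 0.09, paired 4 and 1, 18.2% and 4.55%), Bhlhe40 and the nuclear receptor Nr4a1 (0.52, adjusted p = 0.0442, lost without any 1 library at 0.0663 to 0.219). MAPK feedback genes gave 0 of 18 (median 0.12). In the paired fit 8 were higher (44.4%, against 13.4% of all genes) and 2 lower (11.1%, against 12.2%). YAP targets rose in 2 of 22, Ccn2 and Nt5e (9.09%, median 0.09, paired 9 and 6, 40.9% and 27.3%), and in 1 without vehicle replicate 1, where Ccn2 was lost.

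Among signalling lists, cytokines, growth factors and receptors rose in 1 of 40 (2.5%, against 1.26% of all genes, median 0.06, paired 8 higher and 6 lower of 35, 22.9% and 17.1%). That gene was Pdgfa, a platelet-derived growth factor, with 57.2, 61.6 and 55.9 CPM with TGF-β1, against 37.2, 43.6 and 44.7 CPM with vehicle (0.48, SE 0.09, adjusted p = 0.00502) and separate groups, and without vehicle replicate 3 the count was 2. In the Notch list 1 of 16 rose and 1 fell (12.5% called, against 1.91% of all genes, median 0.03, paired 4 and 4 of 15, 26.7% each). The receptor gene Notch4 had 10.8, 12.1 and 11.48 CPM with TGF-β1, against 3.85, 4.01 and 5.004 CPM with vehicle (1.42, SE 0.20, adjusted p = 0.000429). The ligand gene Jag2 had 0.319, 0.481 and 0.341 CPM with TGF-β1, against 0.832, 0.876 and 0.853 CPM with vehicle (-1.19, SE 0.31, adjusted p = 0.0491), and its call was lost without any 1 library (0.0734 to 0.246). The Wnt pathway gave 0 of 24 (median 0.11, paired 8 higher and 1 lower of 19) and axon guidance 0 of 29 (median 0.02, paired 5 and 8 of 25). Paired shares were 42.1% higher and 5.26% lower for Wnt and 20% and 32% for axon guidance, against 13.4% and 12.2% of all genes.

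Metabolic and stress lists gave 0 calls in edgeR, with paired counts higher and lower of 7 and 6 of 37 for sterol and fatty acid synthesis (median 0.03), 12 and 5 of 34 for hypoxia and glycolysis (0.04), 14 and 1 of 35 for serine, glycine and ATF4 genes (0.10) and 7 and 3 of 26 for NRF2 genes (0.03). Without TGF-β1 replicate 2 the ATF4 list had 1 rise. In that list the pseudokinase gene Trib3, named after its values were seen, had 216, 210 and 211 CPM with TGF-β1, against 161, 169 and 186 CPM with vehicle (0.30, adjusted p = 0.758, paired 1.90e-05). The unfolded protein and secretory list rose in 1 of 27 (3.7%, against 1.26% of all genes), with a median of -0.002. That gene was Kdelr3 (0.42, adjusted p = 0.0332, lost without any library but TGF-β1 replicate 3 at 0.0675 to 0.199). In the paired fit 8 were higher (29.6%, against 13.4% of all genes) and 1 lower (3.7%, against 12.2%). Interferon-stimulated genes gave 0 of 46 (median -0.04, paired 3 and 5 of 44, 6.82% and 11.4%), ribosomal protein genes 0 of 37 in both fits (-0.01) and mitochondrially encoded genes 0 of 10 (-0.07, paired 0 and 1 of 9). Over all genes 1994 had an unadjusted p under 0.05, and DESeq2 called 350 higher and 244 lower.

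Levels in the other 5 groups place these changes within the series. Of the 194 genes that rose, the vehicle mean lay below the means of all 5 other groups in 92 (47.4%, against 21.2% of all genes tested), and the TGF-β1 mean above all 5 in 61 (31.4%, against 19.3%). Of the 101 genes that fell, the vehicle mean lay above all 5 in 56 (55.4%, against 20.7%), and the TGF-β1 mean below all 5 in 27 (26.7%, against 20.2%). A gene called between these groups is more likely to have an outlying mean in 1 of them, so these shares are descriptions with no test. Col1a1 averaged 38.8 ± 6.71 CPM with TGF-β1 and 10.01 ± 1.82 CPM with vehicle (SD, n = 3 each), above 0.593 to 4.70 CPM in the other groups. Lamb1 went the other way: 4.12 ± 0.478 CPM with TGF-β1 and 1.66 ± 0.136 CPM with vehicle, below the 10.3 to 114 CPM of every other group. Ptgds stood at 2.56 ± 0.726 CPM with TGF-β1 and 10.8 ± 3.44 CPM with vehicle, against 0.139 to 1.92 CPM elsewhere.

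**Figure D4:**
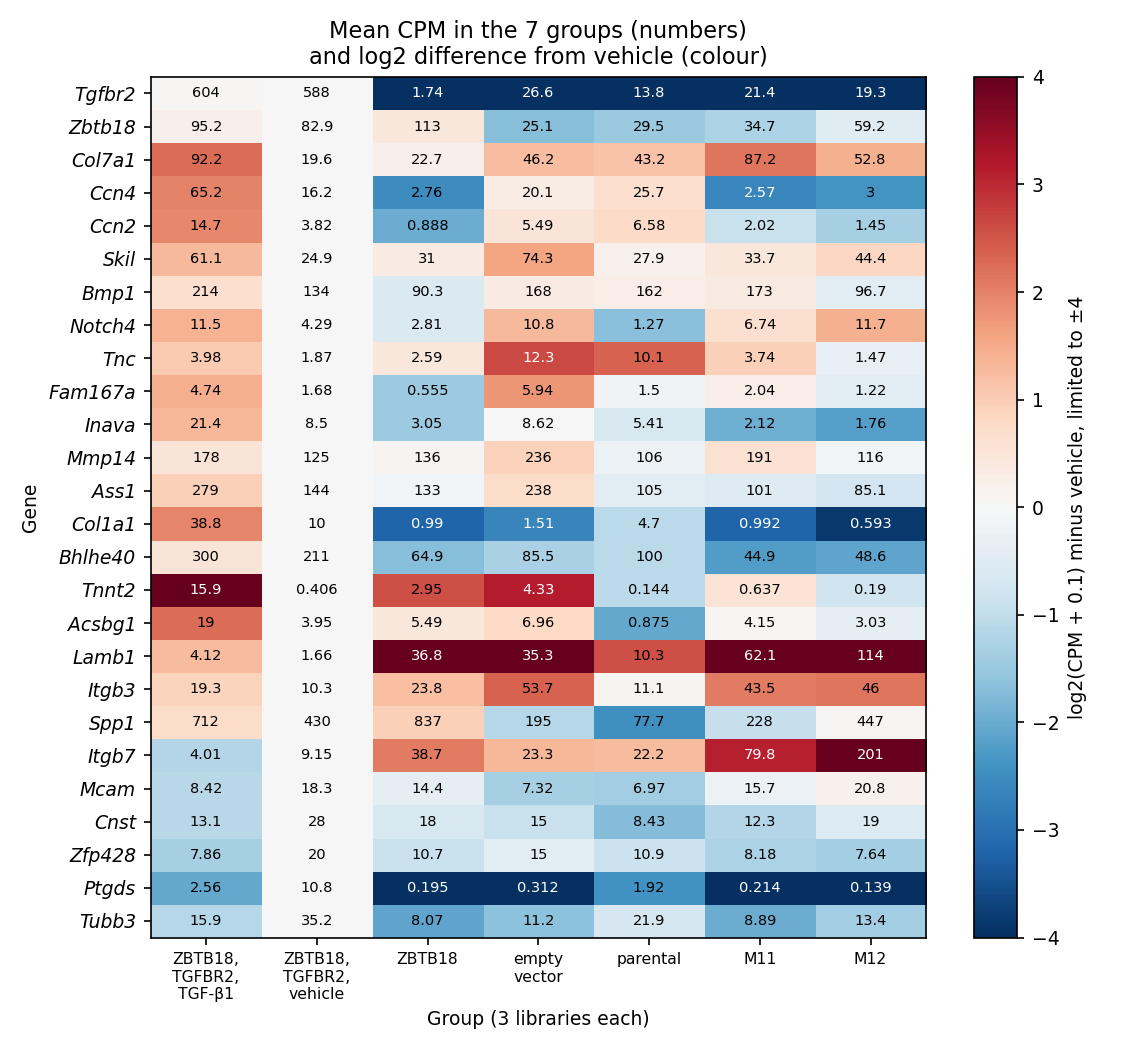
Mean CPM (numbers, n = 3 libraries a group) of 26 genes in the 7 groups, coloured by the log2 difference from the vehicle mean with 0.1 CPM added, limited to ±4. Tgfbr2 separates both receptor groups from the other 5, Col1a1 and Ptgds are higher in both receptor groups than elsewhere, and Lamb1 and Itgb7 are lower in both.

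Part of the called genes also differed between ZBTB18-overexpressing cells and cells with empty vector, written below as higher or lower with ZBTB18. Tgfbr2 was also far lower in those ZBTB18 cells, as given above. ZBTB18, the receptor level and other differences between the lines cannot be told apart here. ZBTB18 overexpression against empty vector shares no library with the comparison above, and it called 2153 genes higher (14%) and 2235 lower (14.5%). Of the 194 genes that rose with TGF-β1, 65 (33.5% of them, and 2.91% of the genes lower with ZBTB18) were lower and 17 (8.76%, and 0.79% of the genes higher with ZBTB18) higher with ZBTB18. Of the 101 that fell, 30 (29.7%, and 1.39%) were higher and 18 (17.8%, and 0.805%) lower. Without 1 library of the TGF-β1 comparison the 65 became 22 to 47 and the 17 became 6 to 12, and the 30 became 5 to 15 and the 18 became 3 to 8, with the fewest without vehicle replicate 2 in each case, where for the 17 TGF-β1 replicate 1 gave as few. Only the 65 and the 17 stayed within 1.5 times of their count, and that without vehicle replicate 3. Fam167a had a log2 fold change of 1.505 with TGF-β1 and of -3.41 with ZBTB18, Ccn4 of 2.01 and -2.87, Ccn2 of 1.96 and -2.63, Tnc of 1.12 and -2.25, Notch4 of 1.42 and -1.93, and Skil of 1.301 and -1.26. Spp1 (0.73 and 2.10), Hmga2 (0.48 and 1.19) and Nt5e (0.75 and 0.62) were higher in both. Jag2 was lower in both (-1.19 and -4.36), and Mcam (-1.13 and 0.97) and Lpar2 (-0.92 and 1.45) fell with TGF-β1 and were higher with ZBTB18. Tnnt2, Acsbg1 and Col1a1 had no call with ZBTB18, at adjusted p = 0.136, 0.413 and 0.252. Fam167a lost its TGF-β1 call without TGF-β1 replicate 1 or 3 or vehicle replicate 1 or 2 (adjusted p 0.0594 to 0.121).

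**Figure D5:**
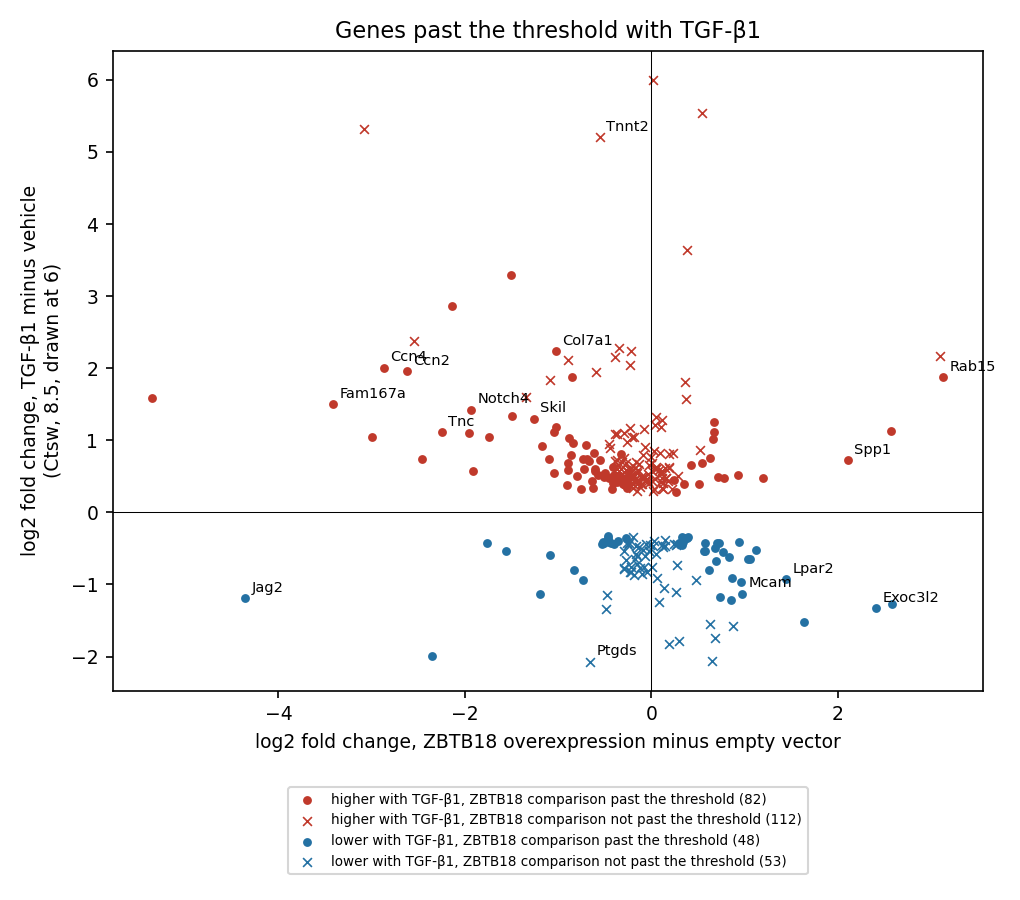
Log2 fold change of TGF-β1 minus vehicle (vertical axis) against that of ZBTB18 overexpression minus empty vector (horizontal axis) for the 295 called genes, circles where the ZBTB18 comparison also passed and crosses where it did not. Of the 82 red circles 65 lie left of 0, and of the 48 blue circles 30 lie right of it.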

How the data were processed

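Polyadenylated RNA was prepared with a stranded mRNA kit, per the labels' protocols. The authors deposited expected counts per gene from RSEM, not normalised, and TPM, which RSEM scales by effective length and to a fixed sum. Trim Galore, RSEM, STAR 2.7.1a and GATK 4.1.2.0 are named, per the submitters' processing notes, and mm10 as the genome build; the annotation release is not given in the sources used here. The deposited FPKM values were not used. The table held 55573 genes, and its 92 spike-in entries had 0 reads and stayed out; 1.28% of values were not whole and were rounded. RSEM shares reads among near-identical genes, so levels within families depend on that sharing. Positions came from GENCODE vM21, which held 99.14% of the identifiers.

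The edgeR 4.0.16 package under R 4.3.3 scaled the counts by TMM, dropped genes with too few counts for the group size (filterByExpr) and ran the robust, two-sided quasi-likelihood F-test in 1 model of all 21 libraries with 14 residual degrees of freedom, with Benjamini-Hochberg adjustment across the 15432 genes tested. The SE of a log2 fold change is its size divided by the square root of F. On simulated counts for TGF-β1 against vehicle (15291 genes), 74% of 1.5-fold and 97% of 2-fold changes were recovered. These counts were drawn independently for each library, with a spread set by the level of a gene only. They held no spread particular to a gene and no deviation shared by same-numbered libraries. Changes were placed only in genes of at least 1 CPM with vehicle, so the shares may not hold for the data. Intervals and floors from reads cover counting error only, and there are no molecular identifiers.

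Replicate numbers come from the sample titles. Same-numbered TGF-β1 and vehicle libraries deviated together from their group means over 15432 genes (correlations 0.302, 0.141 and 0.351, against -0.269 to -0.01 for other pairs), so a fit with the number as a block in the 6 libraries (14131 genes, 2 residual degrees of freedom, spread borrowed across genes) is given beside results whose call it changes.

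Named genes were Tgfbr2, Tgfbr1, Zbtb18, Ccn2, Col7a1 and Skil; among called genes with at least 3 CPM in the higher group and separate groups, the 15 highest and 15 lowest fold changes, the 10 smallest p-values and the 10 largest CPM differences; up to 8 called members of each of 40 gene lists; and all tested members of the pathway lists. Some are given only in part. The members and lists were chosen with earlier results of these data known. Alternatives were DESeq2 1.42.0, its size factors, upper-quartile scaling, limma-voom (limma 3.58.1), no filter, at least 1 CPM in 3 libraries, a fit of only the 6 libraries, log2(TPM + 1) and log2(TPM + 0.1) in limma, the block, leaving out each library, and an adjusted p under 0.01.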

Additional observations from a re-analysis of the deposited data

How the results depend on the processing

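No alternative turned the direction of a named call, and the 295 called genes kept their sign in every setting in which they were tested. The counts of genes higher and lower, 194 and 101 as reported, were 350 and 244 with DESeq2, 382 and 251 with no filter, 772 and 577 in the 6 libraries alone, 1899 and 1724 with the replicate block, 70 and 42 on log2(TPM + 1), 59 and 22 on log2(TPM + 0.1), and 66 and 24 at an adjusted p under 0.01; limma-voom gave 173 lower. Leaving out 1 library gave 52 to 130 higher and 19 to 53 lower. The 2-fold counts, 51 and 21 as reported, were 13 and 5 on log2(TPM + 1), 29 and 12 on log2(TPM + 0.1), 79 and 76 with the replicate block and 27 and 9 at an adjusted p under 0.01; the lower one was 42 with no filter and 47 in the 6 libraries alone. Leaving out 1 library gave 19 to 44 and 7 to 14. The share of higher genes among calls, 65.8%, ran between 52.4% with the block and 80.2% without TGF-β1 replicate 2. Of 64 named calls, 35 held on log2(TPM + 1), 29 on log2(TPM + 0.1), 35 to 53 without 1 library and 64 with the block, and 61 to 64 in the other settings at the same threshold. The causes of the smaller counts on the TPM scales and of the larger counts in the 6 libraries alone were not tested. Without 1 library a group has 2, and its spread comes from the model of all libraries. With DESeq2 the 65, 17, 30 and 18 genes shared with the ZBTB18 comparison were 128, 52, 73 and 42. Depth limits genes with few reads, such as Rhbdl1, Prss50 and Pkp1.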

Other observations

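Of the 295 called genes, 38 (29 higher and 9 lower) passed in all 16 alternative settings at the same threshold. Besides genes described above they include Foxs1, a forkhead factor gene, with 51.6, 54.4 and 45.9 CPM with TGF-β1, against 29.5, 36.6 and 34.2 CPM with vehicle (log2 fold change 0.60, edgeR adjusted p = 0.00310), and Dbn1, drebrin, which binds actin, with 5.88, 6.71 and 6.09 CPM with TGF-β1, against 2.05, 3.04 and 3.21 CPM with vehicle (1.19, adjusted p = 0.00238). Ercc1, a nuclease subunit of excision repair, had 16.2, 14.7 and 14.2 CPM with TGF-β1, against 7.40, 8.35 and 8.26 CPM with vehicle (0.91, adjusted p = 0.00184), and Mrnip, which binds the MRN complex, had 9.94, 10.5 and 10.7 CPM with TGF-β1, against 4.37, 4.99 and 6.07 CPM with vehicle (1.02, adjusted p = 0.000600). Among the lower ones, Exoc3l2 had 1.26, 0.962 and 1.08 CPM with TGF-β1, against 2.83, 2.85 and 2.65 CPM with vehicle (-1.32, adjusted p = 0.00120), and Elp6, an Elongator subunit that acts in tRNA modification, had 9.43, 9.37 and 9.14 CPM with TGF-β1, against 18.1, 15.8 and 13.6 CPM with vehicle (-0.76, adjusted p = 0.00496). No library of these 6 genes overlapped the other group, and they were chosen after their values were seen.

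Over the autosomes and X, the share of called genes ran between 0.972% on chromosome 10 and 3% on chromosome 6.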
